A study of Mus musculus with 35 samples.

Results

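H2-Aa, H2-Ab1, H2-Eb1, Cd74, Ciita, H2-DMa, H2-DMb2 and H2-Oa are the genes of antigen presentation by major histocompatibility complex (MHC) class II molecules described here, 8 of the 12393 genes measured. They were chosen by symbol, and where a gene had several probe sets (groups of short probes against 1 transcript), the one with the highest mean over all 35 Affymetrix Mouse 430A2 arrays stood for it. Messenger RNA was measured in 13 arrays of lymphoid tumours and 22 arrays of sorted normal mouse B cells, in 9 groups. The tumours came from mice lacking both Lig4 and p53 (the Lig4/P53 KO group, n = 6), from mice labelled as carrying Myc and Bcl6 transgenes (Myc/Bcl6, n = 3), and from mice labelled Bcl6 Trans (n = 4), whose strain label says transgenic and whose genotype label says knock-in. The normal cells came from wild-type mice. Bone marrow gave pro-B cells, sorted as CD43-high, B220+ and IgM- (n = 3), from 129 mice on 2 arrays and from B6 on 1, and pre-B cells, sorted as CD43-low with the same other markers (strain 129, n = 3). Spleen gave transitional B cells (B220+ Cd93+, strain 129, n = 4), B cells of the germinal centre (GC; PNA-high and B220+, B6, n = 5) and plasmablasts (B220+ Cd138+ Cd93-, B6, n = 4). Plasma cells (B220-low Cd138+ Cd93-, B6, n = 3) were sorted from bone marrow. The ages of the mice, the promoters that drive the transgenes, the tissue and the strain of the tumours, and whether an array held 1 mouse or a pool are not given in the sources used here, so the p-values measure the spread between these samples, which may be technical.

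Class II molecules show peptides from proteins taken up by the cell to CD4 T cells, and B cells rely on them to obtain T-cell help in the germinal centre. H2-Aa and H2-Ab1 encode the alpha and beta chains of the mouse molecule I-A, and H2-Eb1 the beta chain of I-E. The invariant chain Cd74 binds new class II molecules in the endoplasmic reticulum and steers them to the endosome. There H2-DM, whose chains are encoded by H2-DMa and H2-DMb2, exchanges the remnant of Cd74 for an antigenic peptide, and H2-O, with the alpha chain H2-Oa, holds H2-DM back in B cells. Ciita is the coactivator that switches the whole group on: it binds no DNA itself but docks on the RFX, CREB and NF-Y proteins seated on a shared promoter element. Plasma cells are known to silence Ciita and with it class II.

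The deposited values were log2 intensities, which ran from 1.71 to 14.29 with a median of 4.921, and arrays give no counts, so their number limits the precision. No detection calls come with them, so where a group read near that median the signal may be background, and the log2 difference given for it may then be smaller than the true one. The 18S rRNA control probe sets read 4.14 to 6.15 in the tumours and 4.02, 4.21 and 7.38 in plasma cell arrays 1, 2 and 3, against 10.04 to 11.28 in all other normal cells. The 18S signal thus split the tumours and plasma cells from the other stages without overlap. Its part in comparisons across that split was not tested. For the control transcripts Actb and Gapdh, probes near the 3' end were brighter than those near the 5' end. This can happen when RNA is short, but its cause here was not tested. The log2 gap, called here the 3' minus 5' difference, was 2.25 to 4.70 in tumours. It was 4.59, 4.46 and 0.451 in plasma cells and between 0.68 and 2.95 in every other normal sample. Pro-B array 1, pre-B array 2 and Bcl6 Trans array 2 had a narrow spread of values (interquartile range 2.03 to 2.15 log2 units), and the tumours labelled Myc/Bcl6 lay at 2.33 to 2.85, with at least 3.25 elsewhere. The targeted genes were read first: Bcl6 was at 4.18, 6.77 and 9.10 in the arrays labelled Myc/Bcl6 and at 6.23, 7.13, 6.79 and 8.52 in Bcl6 Trans tumours, below the 10.63 to 11.57 of GC B cells. Myc was at 5.11, 5.41 and 4.93 in the tumours labelled Myc/Bcl6 and at 6.80, 5.77, 6.92 and 7.19 in Bcl6 Trans tumours, against 7.75 to 10.23 in GC B cells. Thus neither transcript was raised over GC B cells in the tumours so labelled. GC B cells had the highest Bcl6 mean of the 9 groups (11.22). Bcl6 averaged 6.68 in the tumours labelled Myc/Bcl6 and 7.17 in Bcl6 Trans tumours, above Lig4/P53 KO tumours (5.62) and plasma cells (3.62). The other normal stages averaged 7.83 or more. Myc averaged 5.15 in the tumours labelled Myc/Bcl6, the lowest of the 9 groups. Whether the probes detect the transgenes was not tested, so both group names are used as labels only.

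The promoters of 4 members are shown because 3 of them hold letters of both the X and the Y box of the element through which Ciita acts, and the fourth, H2-DMb2, letters of the Y box alone. RefSeq tables of the build GRCm38.p6 held promoters of 5 of the 8 genes, all in the class II region of chromosome 17. The lines below read 5' to 3' on the gene's own strand and end just before the annotated transcription start. Capitals mark GCAAC, letters from the core of the X box bound by RFX, and TGATTGG, the Y box bound by NF-Y. These letters were chosen with the sequences in view.
H2-Aa, chr17:34287824-34287933, minus strand: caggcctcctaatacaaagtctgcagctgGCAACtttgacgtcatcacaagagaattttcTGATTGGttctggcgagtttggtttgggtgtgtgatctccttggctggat
H2-Eb1, chr17:34305757-34305866, plus strand: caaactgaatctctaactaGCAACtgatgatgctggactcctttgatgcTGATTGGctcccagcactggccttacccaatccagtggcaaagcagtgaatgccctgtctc
H2-Oa, chr17:34092269-34092378, plus strand: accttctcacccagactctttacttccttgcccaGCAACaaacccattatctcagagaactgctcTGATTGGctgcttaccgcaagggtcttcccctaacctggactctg
H2-DMb2, chr17:34145139-34145248, plus strand: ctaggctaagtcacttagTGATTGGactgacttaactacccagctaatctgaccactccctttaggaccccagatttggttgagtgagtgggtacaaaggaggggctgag
In H2-Aa, H2-Eb1 and H2-Oa, GCAAC stood 26, 25 and 26 bases before TGATTGG on the same strand. TGATTGG began 50 bases before the annotated start in H2-Aa, 61 in H2-Eb1, 45 in H2-Oa and 92 in H2-DMb2, whose printed stretch holds no GCAAC. The 250 bases before the annotated start, longer than the printed stretches, were searched for all promoters. Of 32851, 7.23% held TGATTGG on either strand, 29.88% held GCAAC, and 1.479% held GCAAC followed within 40 bases by ATTGG on the same strand. ATTGG lies inside TGATTGG and is the reverse complement of the general NF-Y core CCAAT, which 33.85% held. The pair of promoters listed for H2-DMa held no TGATTGG in those 250 bases. H2-Ab1, Cd74 and Ciita, the last on chromosome 16, had no entry in the table.

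The levels of the 3 class II chains were high in transitional B cells, GC B cells and plasmablasts and lower in bone marrow precursors. H2-Aa read 9.20, 9.91 and 10.56 (lowest, median and highest of 6) in Lig4/P53 KO tumours, 7.96, 10.01 and 12.25 in the 3 tumours labelled Myc/Bcl6, and 12.11, 11.81, 12.14 and 12.22 in Bcl6 Trans tumours. Among normal cells it was at 8.41, 9.20 and 8.56 in pro-B cells, 9.36, 9.81 and 9.75 in pre-B cells, 11.25, 11.17, 11.15 and 10.95 in transitional B cells, 11.33, 11.42, 11.61, 11.67 and 11.58 in GC B cells, 10.65, 11.22, 10.80 and 10.32 in plasmablasts, and 9.66, 9.75 and 9.38 in plasma cells. On the chosen probe sets, H2-Aa was the only one of the 8 genes whose highest group mean was in a tumour group, Bcl6 Trans (12.07 ± 0.18, SD, n = 4). The tumours labelled Myc/Bcl6 held both the lowest and the highest of its 35 values. H2-Ab1 read 9.87, 10.54 and 10.86 (lowest, median, highest) in Lig4/P53 KO tumours, 6.28, 8.81 and 10.02 in tumours labelled Myc/Bcl6, and 11.14, 10.87, 11.85 and 12.22 in Bcl6 Trans tumours. By stage it was at 8.62, 9.66 and 9.87 in pro-B cells, 10.07, 11.14 and 10.20 in pre-B cells, 11.81, 11.80, 12.21 and 12.50 in transitional B cells, 11.28, 11.52, 11.94, 12.27 and 11.90 in GC B cells, 11.83, 11.73, 12.14 and 11.82 in plasmablasts, and 11.08, 10.97 and 8.99 in plasma cells. The third plasma cell array was thus low for this gene while the other pair lay close to the lowest GC array. H2-Eb1 read 8.51, 9.17 and 9.98 in Lig4/P53 KO tumours, 6.83, 8.34 and 9.73 in tumours labelled Myc/Bcl6, and 10.65, 9.84, 11.05 and 11.50 in Bcl6 Trans tumours. Its stage levels were 8.66, 9.48 and 9.06 in pro-B cells, 9.85, 10.33 and 9.53 in pre-B cells, 11.92, 11.67, 12.16 and 12.34 in transitional B cells, 11.28, 11.47, 12.03, 11.92 and 12.10 in GC B cells, 12.03, 12.10, 12.03 and 12.13 in plasmablasts, and 10.71, 10.72 and 10.13 in plasma cells. For H2-Eb1 no tumour array was as high as the highest array of each of the 3 splenic stages.

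The invariant chain followed the same broad shape with a narrower range among the normal stages. Cd74 read 11.40, 12.25 and 12.44 (lowest, median, highest) in Lig4/P53 KO tumours, 8.08, 9.71 and 11.29 in tumours labelled Myc/Bcl6, and 12.67, 12.03, 12.71 and 12.84 in Bcl6 Trans tumours. In normal cells Cd74 was at 9.72, 11.97 and 11.58 in pro-B cells, 12.00, 12.28 and 12.01 in pre-B cells, 13.64, 13.63, 13.48 and 13.73 in transitional B cells, 12.82, 13.23, 13.57, 13.34 and 13.51 in GC B cells, 13.38, 13.35, 13.44 and 13.51 in plasmablasts, and 12.78, 12.78 and 12.91 in plasma cells. Its 6 stage means spanned 2.53 log2 units, and its lowest normal value was that of pro-B array 1.

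The peptide editors were the genes with the widest spans over the 9 group means, while over the 6 stages Ciita (3.85) spanned more than H2-DMa (3.22). H2-DMa read 5.82, 7.27 and 8.06 (lowest, median, highest) in Lig4/P53 KO tumours, 5.11, 5.43 and 6.33 in tumours labelled Myc/Bcl6, and 6.21, 6.00, 7.33 and 8.17 in Bcl6 Trans tumours. By stage H2-DMa was at 7.31, 8.58 and 7.90 in pro-B cells, 8.28, 5.09 and 8.45 in pre-B cells, 9.94, 9.83, 10.69 and 10.46 in transitional B cells, 9.17, 9.61, 10.09, 10.09 and 10.22 in GC B cells, 9.70, 9.59, 10.42 and 9.69 in plasmablasts, and 6.40, 6.53 and 8.10 in plasma cells. Every array of the 3 splenic stages was above every other array for H2-DMa. H2-DMb2 read 5.29, 5.84 and 6.68 in Lig4/P53 KO tumours, 5.47, 5.74 and 6.57 in tumours labelled Myc/Bcl6, and 5.23, 6.48, 4.84 and 4.52 in Bcl6 Trans tumours. Its stage values were 4.46, 4.86 and 5.79 in pro-B cells, 5.78, 5.57 and 6.16 in pre-B cells, 9.84, 10.44, 10.80 and 9.41 in transitional B cells, 9.23, 9.60, 10.67, 9.11 and 10.16 in GC B cells, 9.90, 10.45, 10.12 and 9.84 in plasmablasts, and 4.34, 4.47 and 6.41 in plasma cells. H2-DMb2 thus split the arrays into 13 with values of at least 9.11, all from spleen, and 22 with values of 6.68 or less. H2-Oa read 4.93, 5.73 and 7.07 in Lig4/P53 KO tumours, 3.20, 5.04 and 5.75 in tumours labelled Myc/Bcl6, and 7.21, 6.46, 7.84 and 6.82 in Bcl6 Trans tumours. Among normal cells H2-Oa was at 4.97, 6.60 and 5.48 in pro-B cells, 5.91, 3.34 and 5.53 in pre-B cells, 9.43, 9.51, 10.11 and 10.22 in transitional B cells, 9.74, 9.46, 9.86, 9.96 and 10.11 in GC B cells, 8.98, 9.30, 9.85 and 9.67 in plasmablasts, and 8.20, 8.03 and 7.74 in plasma cells. Plasma cells lay between the splenic stages and the precursors for H2-Oa, without overlap with either.

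On its chosen probe set, the coactivator itself showed the same 3 high groups. Ciita read 5.42, 6.19 and 6.56 (lowest, median, highest) in Lig4/P53 KO tumours, 3.63, 4.80 and 6.13 in tumours labelled Myc/Bcl6, and 7.14, 6.75, 8.44 and 8.01 in Bcl6 Trans tumours. By stage it was at 5.34, 5.16 and 4.57 in pro-B cells, 6.42, 5.68 and 5.92 in pre-B cells, 7.74, 7.76, 9.35 and 9.51 in transitional B cells, 7.64, 8.07, 8.68, 8.93 and 8.58 in GC B cells, 8.61, 8.84, 9.41 and 8.66 in plasmablasts, and 7.90, 7.84 and 4.76 in plasma cells. Ciita was within the pro-B range in plasma cell array 3 and inside the range of the splenic stages in plasma cell arrays 1 and 2.

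**Figure D1:**
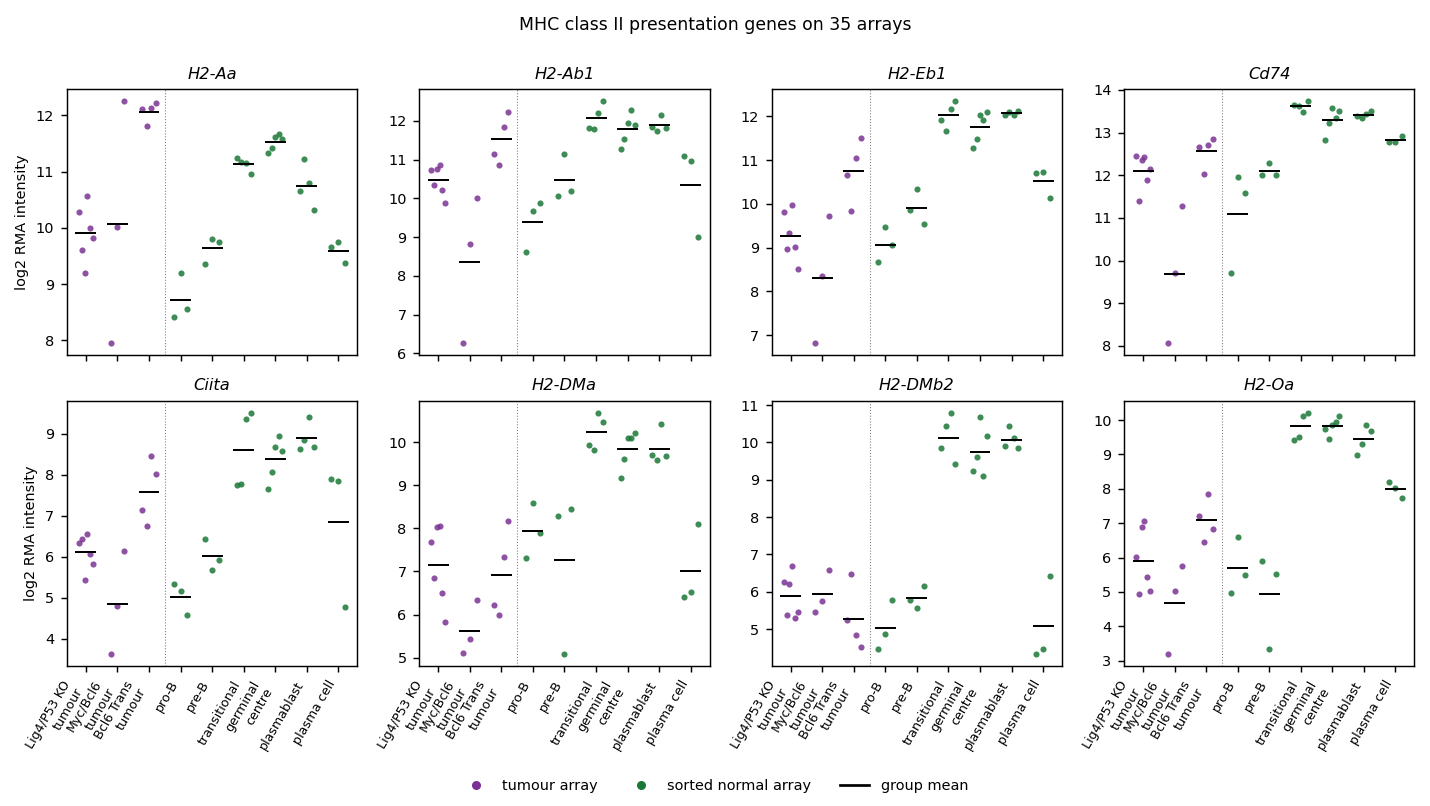
Log2 intensity of each of the 8 genes (1 panel a gene) in every array, by group; each point is an array and each bar a group mean. The 13 arrays of transitional B cells, GC B cells and plasmablasts lie highest for H2-DMa, H2-DMb2 and H2-Oa, while for H2-Aa the 4 Bcl6 Trans tumours (11.81 to 12.22) lie above them.

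In the order of the 9 group means on the chosen probe sets, transitional B cells, GC B cells and plasmablasts took the top 3 places for every gene but H2-Aa. The spread between the highest and the lowest group mean ran from 3.35 log2 units (H2-Aa) to 5.16 (H2-Oa). The lowest mean was that of the tumours labelled Myc/Bcl6 for 6 genes and of pro-B cells for H2-Aa and H2-DMb2. Most neighbours in these orders did not differ beyond their spread: by limma, with p adjusted over all 12393 genes, a single neighbouring pair of 8 passed 0.05 for each of 5 genes and none did for H2-Ab1, H2-Eb1 and Ciita. The pairs that passed were plasma cells over pro-B cells for H2-Aa (adjusted p = 0.0443), tumours labelled Myc/Bcl6 below pro-B cells for Cd74 (adjusted p = 0.0339), GC B cells over pro-B cells for H2-DMa (adjusted p = 0.0425), tumours labelled Myc/Bcl6 below GC B cells for H2-DMb2 (-3.82 log2 units) and plasma cells below plasmablasts for H2-Oa (adjusted p = 0.0413). Of all genes, 15% were called between plasma cells and pro-B cells, 26.9% between tumours labelled Myc/Bcl6 and pro-B cells, and 8.73% between GC B cells and pro-B cells. As a description over the 9 group means, which share their arrays, each gene correlated with the mean of the other 7 by a Pearson r between 0.624 (H2-Aa) and 0.972 (Ciita and H2-Eb1). The order depended on the probe set. On the second of H2-Aa, 1452431_s_at, the same 3 splenic stages led (11.15 to 11.52). Bcl6 Trans tumours were at 8.44 there and tumours labelled Myc/Bcl6 were lowest at 5.40. On the second of Ciita, 1421210_at, plasma cells (5.88) stood above transitional B cells (5.66), and pro-B cells were lowest (4.40).

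The step from pro-B to pre-B cells, both from bone marrow, left the 8 genes without a call. The class II chains and Cd74 differed by 0.84 to 1.09 log2 units, higher in pre-B cells: H2-Aa by 0.91 ± 0.29 (SE), H2-Ab1 by 1.09 ± 0.47, H2-Eb1 by 0.84 ± 0.32 and Cd74 by 1.002 ± 0.39. Their limma adjusted p-values were 0.227, 0.356, 0.309 and 0.32. Ciita differed by 0.98 ± 0.64 and H2-DMb2 by 0.80 ± 0.52, while H2-DMa and H2-Oa had negative differences (-0.66 ± 0.64 and -0.76 ± 0.51) with 1 low pre-B array each, array 2, one of the arrays of narrow spread, without which they differed by 0.43 and 0.04. Across all genes 0.161% were called in either direction, a low background. The median difference of the 8 genes was 0.88, that of all genes 0.11, and 4 of the 8 had an unadjusted p under 0.05. The third pro-B array also differs from the others in strain. The other class II genes measured (H2-Ea, the I-E alpha chain, the endosomal proteases Ctss, Ctsl and Lgmn, the thiol reductase Ifi30, and Cd83, which stabilises class II at the surface) gave 0 calls of 6.

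All 8 genes rose in transitional B cells relative to pre-B cells, and for none did the arrays of the groups overlap, as for 15% of all genes. Over all genes 5.84% were called in either direction and 2.93% were higher. H2-Oa (log2 difference 4.89 ± 0.47, adjusted p = 1.74e-06 by limma) and H2-DMb2 (4.28 ± 0.48, adjusted p = 1.05e-05) were higher in transitional B cells by the largest differences of the 8, with pre-B signals of 3.34 to 6.16. H2-DMa was 7.78-fold higher (2.96 ± 0.60, adjusted p = 0.00408). Without pre-B array 2, of narrow spread, the difference was 1.87 for H2-DMa, below the 2.42 of Ciita and the 2.33 of H2-Eb1, and 4.10 for H2-Oa, and all 8 were still called; without pre-B array 3, that of H2-DMa was 3.55. Ciita was 5.98-fold higher (2.58 ± 0.60, adjusted p = 0.0118), but was not called with array weights (2.10, adjusted p = 0.077). Among the chains, H2-Eb1 was higher by 4.34-fold (2.12 ± 0.30, adjusted p = 0.000105), H2-Ab1 by 3.06-fold (1.61 ± 0.44, adjusted p = 0.0316) and H2-Aa by 2.82-fold (1.49 ± 0.27, adjusted p = 0.00138), and Cd74 was 2.88-fold higher (1.53 ± 0.37, adjusted p = 0.0152). The median of the 8 differences was 2.35, against 0.04 over all genes. The 4 genes whose promoters are printed above had differences from 1.49 to 4.89, the same range as all 8. A link with the promoter letters was not tested. The call of H2-Ab1 was lost without pre-B array 1, pre-B array 3, transitional array 3 or transitional array 4 (adjusted p 0.0722 to 0.0929, differences 1.41 to 1.57). In a fit on these groups alone, 3 of the 8 genes were called. Of the other probe sets, with 4.89% of all probe sets called, that of H2-Aa was higher by 2.20 ± 0.32, while those of H2-Ab1 (1.68 ± 0.60 and 1.42 ± 0.52) and of Ciita (0.90 ± 0.37) were not called.

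Other genes of the pathway moved in part at this step. Cd83 was 5.09 ± 0.39 log2 units higher in transitional B cells, at 10.98, 10.76, 11.71 and 10.50 against 5.69, 5.46 and 6.56 in pre-B cells. Lgmn, which cuts antigens and Cd74 in the endosome, was 2.34 ± 0.55 higher, and the other 4 of the 6 measured were not called. Of 7 measured proteins of the promoter complex only Rfx5, the large RFX subunit, was called (2.01 ± 0.46), and of 8 factors known to act on Ciita only Irf1 (1.85 ± 0.46). MHC class I presentation, which shows peptides from inside the cell, gave 1 call of 12, the peptide transporter Tap1 (2.76 ± 0.77). Marker genes of other cells differed too: all 8 granulocyte markers were lower in transitional B cells, with array means of the list from 3.82 to 6.08 against 9.32 to 11.52 in pre-B cells, and Ltf, Ngp and Camp, granule proteins of neutrophils, by 6.64, 6.27 and 6.76. Of 7 B-lineage markers 2 were called, Cd22 and Ms4a1, both higher. In bulk samples like these, fewer cells of a type and less RNA per cell cannot be told apart, and the part of the granulocyte transcripts and of the change of tissue in these results was not tested.

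From transitional to GC B cells the 8 genes gave no call although 13.5% of all genes were called, and none had an unadjusted p under 0.05 in limma. The differences ran from -0.39 to 0.39 log2 units with a median of -0.28, beside -0.27 over all genes. H2-Aa, at 0.39 ± 0.24 (adjusted p = 0.284), was the member whose arrays did not overlap, beside 34.8% of all genes. H2-Ea was 0.86 ± 0.25 lower in GC B cells, with both means (3.62 and 4.48) below the overall median of the arrays. Pax5, a B-lineage factor that acts on Ciita, was also lower, while none of the 7 promoter-complex genes and none of the 12 class I genes was called. NK-cell markers were higher in GC B cells for 5 of 5 genes (array means of the list 7.13 to 8.57, against 4.10 to 4.63), granulocyte markers for 7 of 8, macrophage markers for 5 of 12 and T-cell markers for 4 of 7. The groups also differ in strain, which cannot be told apart from the stage, and the part of these transcripts in the members' values was not tested.

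Plasmablasts and GC B cells, both splenic and B6, differed at 0.678% of genes and at none of the 8 members by limma, with 1 of the 8 at an unadjusted p under 0.05. That gene was H2-Aa, 0.77 ± 0.24 log2 units lower in plasmablasts with arrays that did not overlap (adjusted p = 0.154), as for 15.8% of all genes. It was called with array weights (adjusted p = 0.000584), in a fit on these groups alone (0.0199) and with the narrow arrays left out (0.0185). The other 7 members had differences of -0.37 to 0.50. None of the other class II, promoter-complex, upstream or class I genes was called here. Markers of NK cells were lower in plasmablasts for 4 of 5 genes and those of T cells for 3 of 7. The other marker lists, plasma cell and B-lineage markers among them, gave no call. The part of these transcripts was not tested.

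Plasma cells had less of 7 of the 8 genes than plasmablasts, and the arrays of all 8 were separate, as were those of 36.5% of all genes. Over all genes 14.3% were called and 5.39% were lower. H2-DMb2 was lower in plasma cells (-5.00 ± 0.48, adjusted p = 2.61e-07 by limma), where 2 of its 3 values lay below the overall median of the arrays, as were H2-DMa, 7.17-fold (-2.84 ± 0.60, adjusted p = 0.00235), and Ciita, 4.12-fold (-2.04 ± 0.60, adjusted p = 0.0242). The chains H2-Eb1 (-1.55 ± 0.30, adjusted p = 0.000967), H2-Ab1 (-1.53 ± 0.44, adjusted p = 0.0211) and H2-Aa (-1.15 ± 0.27, adjusted p = 0.00511) and the editor H2-Oa (-1.46 ± 0.47, adjusted p = 0.0413) were lower by smaller amounts. Cd74 was not called (-0.59 ± 0.37, adjusted p = 0.351), although its 3 plasma cell arrays lay below all 4 plasmablast arrays. With the 3' minus 5' difference as a covariate, H2-DMa (-1.86, adjusted p = 0.0733) and H2-Oa (-1.32, adjusted p = 0.174) were not called and Ciita differed by -3.39. In plasma cell arrays 1, 2 and 3 that covariate was 4.59, 4.46 and 0.451, so this fit also carries whatever else set array 3 apart. With array weights Ciita differed by -1.08 and H2-Ab1 by -0.90, both called. The median of the 8 differences was -1.54, that of all genes 0.22. Against GC B cells, where 19.5% of genes were called and 7.63% were lower in plasma cells, 6 members were called lower: H2-DMb2 (-4.68 ± 0.46), H2-DMa (-2.83 ± 0.57), H2-Aa (-1.93 ± 0.26), H2-Oa (-1.84 ± 0.45), H2-Ab1 (-1.43 ± 0.42) and H2-Eb1 (-1.24 ± 0.28). Ciita (-1.54 ± 0.57, adjusted p = 0.0634) and Cd74 (-0.47 ± 0.35) did not pass there. Both comparisons use the same plasma cell arrays.

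**Figure D2:**
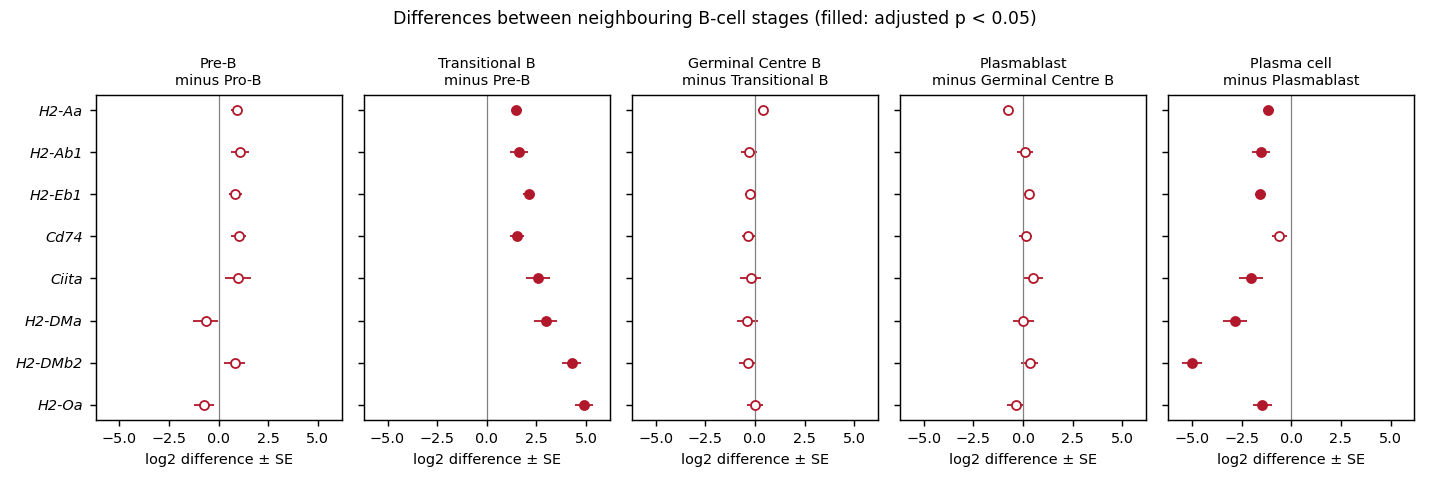
Log2 difference ± SE of each of the 8 genes at the 5 steps between neighbouring normal stages, later stage minus earlier stage; filled points have a limma adjusted p under 0.05. All 8 points are filled and above 0 at the step to transitional B cells, and 7 are filled and below 0 at the step to plasma cells.

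The plasma cell arrays were not alike. Arrays 1 and 2 differed by at most 0.17 log2 units at any member, and the SD of their difference over all genes was 0.333, close to the 0.341 of the nearest pair of GC arrays, while array 3 stood 1.05 and 1.06 from them. Relative to the mean of the other pair, array 3 was lower for Ciita by 3.11 and for H2-Ab1 by 2.03, and higher for H2-DMb2 by 2.01 and for H2-DMa by 1.63. Array 3 is also the one with the 3' minus 5' difference of 0.451. Without it, 4 members were called lower than in plasmablasts, and H2-Ab1 (-0.85, adjusted p = 0.168), Ciita (-1.01, adjusted p = 0.203) and H2-Oa (-1.34, adjusted p = 0.113) were not. Without arrays 1 and 2, a setting chosen after seeing the data, 5 were called, Ciita differed by -4.12 and H2-Ab1 by -2.88, and H2-DMa (adjusted p = 0.271) and H2-Oa (adjusted p = 0.187) were not called. Leaving out plasmablast array 3 also brought the count to 4. The call of H2-Oa was lost when any 1 of the plasma cell arrays or plasmablast arrays 2, 3 or 4 was left out (adjusted p 0.0684 to 0.113). Against GC B cells, H2-Ab1 was not called without plasma cell array 3 (-0.75, adjusted p = 0.201), and Ciita was called without array 1 or without array 2 (adjusted p 0.0303 and 0.0349), with array weights (-0.75, adjusted p = 0.0366) and with the 3' minus 5' covariate (-2.87). Without arrays 1 and 2, H2-DMa was not called against GC B cells (-1.74, adjusted p = 0.199).

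The partner of H2-Eb1 ran the other way in plasma cells. H2-Ea read 7.79, 7.67 and 7.22 in plasma cells, against 4.02, 3.52, 3.89 and 3.94 in plasmablasts, a log2 difference of 3.72 ± 0.28 (adjusted p = 1.1e-08 by limma). Its other probe sets differed by 6.33 ± 0.27 (1422892_s_at) and by 0.43 ± 0.38 (1426202_at, not called). All other normal stages and both strains read 3.39 to 5.14 at H2-Ea, and mice of the H2-b haplotype, B6 among them, are known to make no H2-Ea transcript. The check of the sort against its own marker also went against the label: Sdc1, which encodes Cd138, read 3.88, 4.60 and 5.71 in plasma cells, against 9.06, 9.99, 10.44 and 5.52 in plasmablasts. Ms4a1 (CD20), a surface protein that plasma cells are known to lose, read 10.14, 10.62 and 7.69 in plasma cells, beside 10.08, 10.73, 10.30 and 10.52 in plasmablasts. Jchain, which links secreted antibody, read 10.11, 10.10 and 9.81 in plasma cells, beside 11.28, 12.49, 10.66 and 8.19 in plasmablasts. Of 7 B-lineage markers 3 were lower in plasma cells, Ebf1 (-1.81 ± 0.41), Cd79a (-1.47 ± 0.42) and Cd79b (-1.33 ± 0.40), with array means of the list from 8.46 to 9.66 against 10.18 to 10.47. The arrays are therefore called plasma cells and B6 only after their labels. The part of the sorted population and of the mouse strain in the class II values was not tested.

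**Figure D3:**
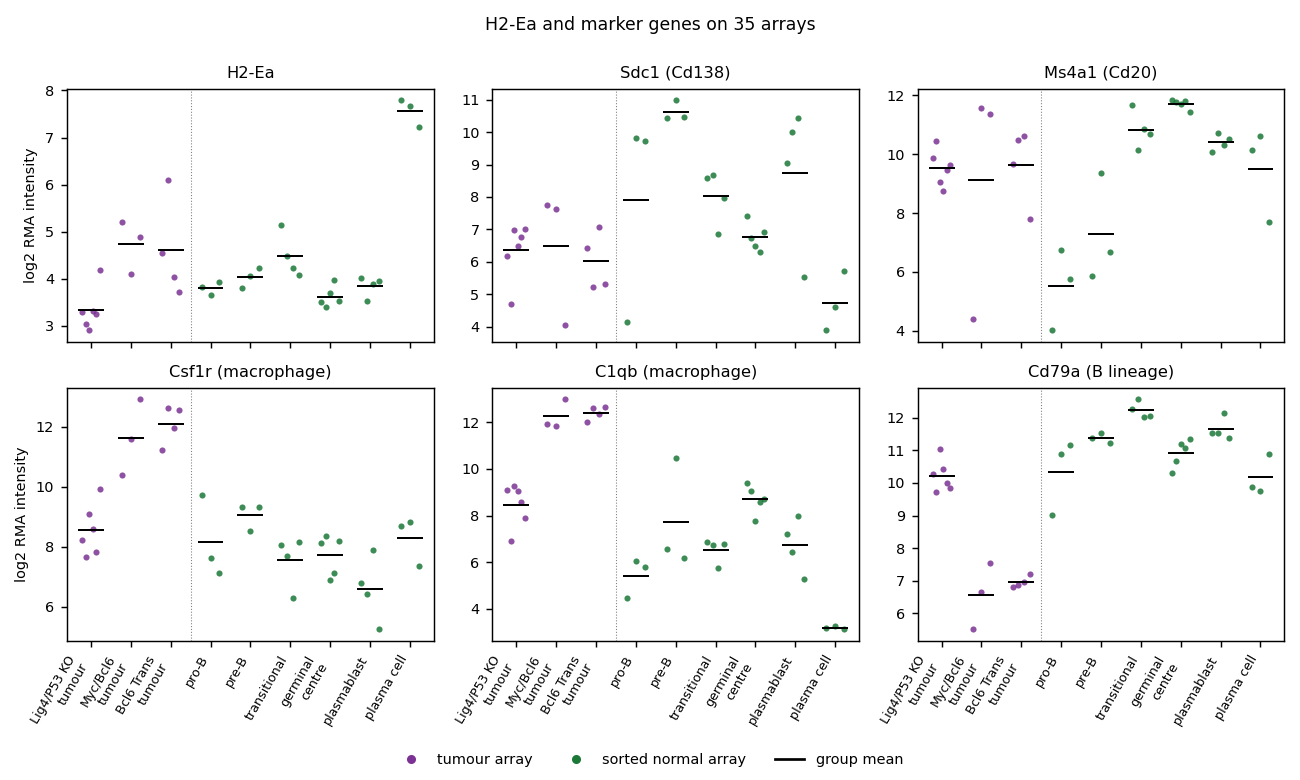
Log2 intensity of H2-Ea, Sdc1, Ms4a1, Csf1r, C1qb and Cd79a in every array, by group; each point is an array. H2-Ea is high in the 3 plasma cell arrays (7.22 to 7.79) where Sdc1 is low (3.88 to 5.71), and the tumours labelled Myc/Bcl6 and Bcl6 Trans are high for Csf1r and C1qb and low for Cd79a.

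Of the other pathway genes, Ctsl, an endosomal protease, was lower in plasma cells than in plasmablasts by 2.94 ± 0.59 on the log2 scale and Cd83 by 1.34 ± 0.39. Rfxap, an RFX subunit, was 2.60 ± 0.39 higher, and the other 6 promoter-complex genes were not called. Of 8 factors known to act on Ciita, 3 were lower: Spib (-2.12 ± 0.56), Irf8 (-1.39 ± 0.43) and Pax5 (-1.05 ± 0.34). Prdm1, the repressor known to shut Ciita in plasma cells, was not called (0.40 ± 0.44). Class I presentation gave 3 lower of 12, with H2-K1 at -3.31 ± 0.39 and H2-D1 at -1.68 ± 0.36, the heavy chains of class I. Markers of other cells were lower in plasma cells as well, for 7 of 8 granulocyte genes and 4 of 12 macrophage genes, with array means of the macrophage list from 3.92 to 4.08 against 4.43 to 5.84 in plasmablasts. The tissue differs between the groups, their strain is alike only by label, and the part of these transcripts was not tested.

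Bcl6 Trans tumours, set against the GC B cells in which Bcl6 normally acts, had much less of the peptide editors, while the class II chains were not called on the chosen probe sets. Over all genes 26.8% were called and 13.9% were lower in the tumours. H2-DMb2 was lower (-4.49 ± 0.43, adjusted p = 4.8e-09 by limma), as were H2-DMa, 7.51-fold (-2.91 ± 0.55, adjusted p = 0.000198) and H2-Oa 6.70-fold (-2.74 ± 0.49, adjusted p = 0.00011), each without overlap of arrays, as for 33.2% of all genes. H2-Ab1 (-0.26 ± 0.48), Cd74 (-0.73 ± 0.41), Ciita (-0.80 ± 0.52) and H2-Eb1 (-1.003 ± 0.39, adjusted p = 0.0557) were not called. H2-Aa was 0.55 ± 0.44 higher in the tumours (adjusted p = 0.358), with all 4 tumour arrays above all 5 GC arrays. The median of the 8 differences was -0.90, against 0.21 over all genes. With the 3' minus 5' difference as a covariate, H2-DMa was not called (-1.48, adjusted p = 0.237) and Ciita was (-2.49, adjusted p = 0.0183). H2-Eb1 was called lower without GC array 1 (adjusted p = 0.0493) or without Bcl6 Trans array 4 (adjusted p = 0.0271).

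The chains depended on the probe set. The second probe set of H2-Aa, 1452431_s_at, read 8.65, 6.97, 8.84 and 9.31 in Bcl6 Trans tumours, against 11.30 to 11.69 in GC B cells, a difference of -3.08 ± 0.49 (adjusted p = 1.9e-05 by limma over all 20380 probe sets, of which 27.5% were called), whereas the chosen 1435290_x_at was higher in the tumours. Both other probe sets of H2-Ab1 were lower too, by 2.91 ± 0.55 (1451721_a_at) and 2.71 ± 0.48 (1425477_x_at) on the log2 scale, beside -0.26 for the chosen 1450648_s_at. The second probe set of Ciita, 1421210_at, differed by -1.09 ± 0.37 (adjusted p = 0.0259). So for H2-Aa the probe sets disagree in direction, for H2-Ab1 in size and call, and for Ciita in the call alone. In plasma cells against plasmablasts, where 13.3% of probe sets were called, they had the same direction: the second H2-Aa probe set differed by -2.26 ± 0.32 and the others of H2-Ab1 by -3.14 ± 0.60 and -2.67 ± 0.52, all called, and the second of Ciita by -1.03 ± 0.37 (adjusted p = 0.0713). Where each probe set lies along its transcript is not given in the sources used here, nor is the strain of the tumours. The part of either in these signals was not tested.

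**Figure D4:**
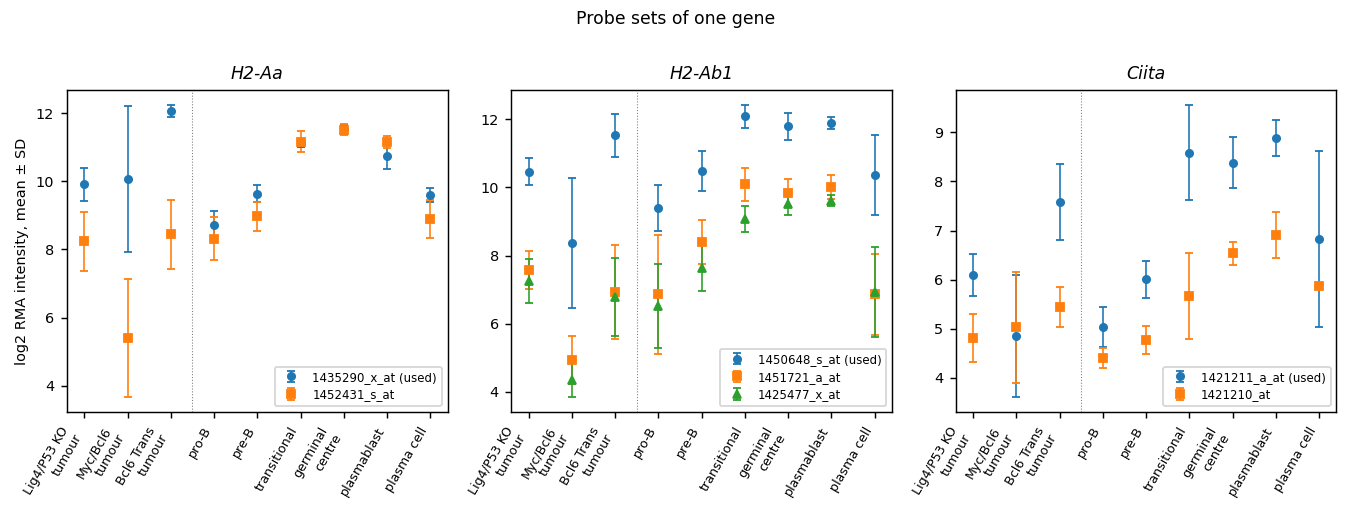
Mean log2 intensity ± SD by group for each probe set of H2-Aa (2), H2-Ab1 (3) and Ciita (2); the chosen probe set is the one with the highest mean over all arrays. Between Bcl6 Trans tumours and GC B cells the chosen probe set of H2-Aa differs by 0.55 and the other by -3.08, and that of H2-Ab1 by -0.26 and the others by -2.91 and -2.71.

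Genes of the promoter complex were lower in Bcl6 Trans tumours than in GC B cells for 6 of 7: Rfxank (-2.04 ± 0.39), Nfyc (-1.60 ± 0.32), Nfyb (-2.63 ± 0.57) and Rfx5 (-1.74 ± 0.38) had the smallest p-values. Among the factors upstream of Ciita, Pax5 was 1.12 ± 0.35 higher and Spib (-3.02 ± 0.59) and Irf4 (-2.90 ± 0.97) were lower. Of the other class II genes 3 were higher, Ctss by 1.37 ± 0.39, Ctsl by 1.96 ± 0.69 and H2-Ea by 0.98 ± 0.34, and 2 were lower, Cd83 (-2.51 ± 0.59) and Lgmn (-1.57 ± 0.52). Both H2-Ea means (4.60 and 3.62) lay below the overall median of 4.92, so that signal may be background. Its probe set 1426202_at was not called. Markers of macrophages, which make class II themselves, were higher for 4 of 12 genes, with Csf1r, the CSF1 receptor, at 11.21, 12.63, 11.97 and 12.55 in the tumours against 6.90 to 8.36 in GC B cells, and array means of the list from 6.46 to 8.68 against 5.46 to 6.67. B-lineage markers were lower for 3 of 7, with Cd79a, a B-cell receptor chain, at 6.80, 6.87, 6.97 and 7.22 against 10.31 to 11.34. The part of macrophage transcripts, of possible RNA shortening and of possibly fewer B cells in the members' values was not tested.

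The tumours labelled Myc/Bcl6 had less of all 8 genes than GC B cells, and the arrays overlapped only for H2-Aa, while those of 52.6% of all genes were separate. Many other genes differed in this comparison as well: 48.1% of all genes were called and 20.9% were lower in the tumours. The editors H2-Oa (-5.16 ± 0.54, adjusted p = 1.44e-08 by limma), H2-DMa (-4.21 ± 0.60) and H2-DMb2 (-3.82 ± 0.47) were lower, with tumour values of 3.20 to 6.57. Cd74 was 12.1-fold lower (-3.60 ± 0.44), Ciita 11.6-fold (-3.53 ± 0.56) and H2-Ab1 10.7-fold (-3.41 ± 0.52), and H2-Eb1 differed by -3.46 ± 0.43. H2-Aa differed by -1.45 ± 0.47 (adjusted p = 0.0137) on the chosen probe set and by -6.12 ± 0.53 on 1452431_s_at, with 47.2% of all probe sets called. It was not called on the chosen probe set without the first of the 3 tumour arrays (-0.39, adjusted p = 0.425) or with the 3' minus 5' covariate (-1.24, adjusted p = 0.149). The median of the 8 differences was -3.57 and that of all genes 0.31. The tumour arrays were far apart, from 8.08 to 11.29 at Cd74 and from 6.28 to 10.02 at H2-Ab1, and for all 8 genes the same array, array 1, was the lowest and array 3 the highest. Without array 1 the differences were -2.80 for Cd74, -2.37 for H2-Ab1, -2.73 for H2-Eb1, -2.92 for Ciita and -4.43 for H2-Oa; without array 3 they were -4.40 for Cd74, -4.24 for H2-Ab1, -4.18 for H2-Eb1, -4.17 for Ciita and -2.54 for H2-Aa, and all of these were called. Array 1 also stood apart at Ms4a1, with 4.39 beside 11.56 and 11.37 in arrays 2 and 3, and Cd79a read 5.51, 6.66 and 7.54. Of the other class II genes, Ctsl (2.80 ± 0.76) and H2-Ea (1.11 ± 0.37) were higher and Cd83 (-4.84 ± 0.64), Lgmn (-2.60 ± 0.57) and Ifi30 (-1.53 ± 0.45) lower. The H2-Ea means (4.73 and 3.62) were again both below the overall median of the arrays. Class I presentation was lower for 9 of 12 genes, the promoter complex for 6 of 7 and B-lineage markers for 6 of 7, and of the macrophage markers Csf1r, C1qb and Itgam were higher and C1qa lower. The narrow spread of values in these arrays and the other cells' transcripts were not tested for their part.

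Between the tumour groups that share the Bcl6 label, 6 genes were lower in the tumours labelled Myc/Bcl6 than in Bcl6 Trans tumours, where 3.91% of all genes were called and 1.97% were lower. They were H2-Ab1 (-3.15 ± 0.55, adjusted p = 0.00225 by limma), Cd74 (-2.87 ± 0.46, adjusted p = 0.00191), Ciita (-2.73 ± 0.59, adjusted p = 0.0084), H2-Eb1 (-2.46 ± 0.45, adjusted p = 0.00269), H2-Oa (-2.42 ± 0.56, adjusted p = 0.014) and H2-Aa (-1.996 ± 0.50, adjusted p = 0.0213). H2-DMa (-1.30 ± 0.62, adjusted p = 0.251) and H2-DMb2 (0.66 ± 0.49, adjusted p = 0.512) were not called. Of the other probe sets, with 3.13% of all called, those of H2-Aa (-3.05 ± 0.56) and 1 of H2-Ab1 (-2.44 ± 0.55) were lower, and the other of H2-Ab1 (-1.99 ± 0.63) and that of Ciita (-0.42 ± 0.42) were not called. Of the other class II genes only Cd83 was called (-2.33 ± 0.67). Class I genes were lower for 6 of 12, and 3 factors upstream of Ciita were lower, Irf8 (-2.86 ± 0.52), Irf1 (-2.06 ± 0.47) and Stat6 (-1.80 ± 0.49). B-lineage markers were lower in the tumours labelled Myc/Bcl6 for 2 of 7 genes, macrophage markers for 1 of 12 and T-cell markers for 1 of 7. The other marker lists gave no call. The part of these transcripts, and of the narrow spread of values in the arrays labelled Myc/Bcl6, was not tested. A fit on these groups alone, with 3 and 4 arrays, called none of the 8. The call of H2-Aa was lost without Myc/Bcl6 array 1 (-0.94), Myc/Bcl6 array 2, Bcl6 Trans array 3 or Bcl6 Trans array 4, and that of H2-Oa without Myc/Bcl6 array 1 (-1.69) or Bcl6 Trans array 3, with adjusted p-values of 0.0616 to 0.189. Without Myc/Bcl6 array 1 the others were called at -2.11 for H2-Ab1, -1.73 for H2-Eb1, -2.07 for Cd74 and -2.12 for Ciita, and without array 3 at -3.98, -3.18, -3.67 and -3.37 in the same gene order, with H2-Aa at -3.08.

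Lig4/P53 KO tumours arise in mice that cannot complete the joining of antigen receptor genes, so they were set against the precursor stages at which joining takes place. Against pre-B cells the 8 genes gave no call, none had an unadjusted p under 0.05, and all 8 overlapped, while 27.1% of all genes were called by limma and 25.3% did not overlap. The differences ran from -0.64 (H2-Eb1) to 0.97 (H2-Oa) log2 units. Pre-B array 2, of narrow spread, was low for H2-Oa, at 3.34 beside 5.91 and 5.53 in the other pre-B arrays. It was also low for H2-DMa, at 5.09 beside 8.28 and 8.45. Against pro-B cells, where 21.1% of genes were called, again none of the 8 passed, with 3 at an unadjusted p under 0.05: H2-Aa stood 1.19 ± 0.46 higher in the tumours (adjusted p = 0.0624), H2-Ab1 1.08 ± 0.51 (adjusted p = 0.129) and Cd74 1.02 ± 0.43 (adjusted p = 0.0879). H2-Aa was called without Lig4/P53 KO array 3 (1.33, adjusted p = 0.0467), and H2-Aa and Cd74 without pro-B array 2 (1.43 and 1.46). H2-Oa was called higher than in pre-B cells without pre-B array 1 (1.47, adjusted p = 0.0478), a setting that keeps the low array 2. Rfx5 was higher in the tumours, by 1.95 ± 0.40 over pre-B cells and by 2.34 ± 0.40 over pro-B cells, at 9.84 to 10.41 in 6 tumour arrays against 8.93, 7.18 and 8.40 in pre-B cells. Rfxank, its partner, was 2.15 ± 0.41 lower than in pre-B cells. Of the 6 other class II genes, Ifi30 (1.88 ± 0.44) and Ctss (1.26 ± 0.42) were higher than in pro-B cells, and 0 were called against pre-B cells. Granulocyte markers were lower in the tumours for 7 of 8 genes in both comparisons. Array means of the list were 5.73 to 7.81, against 9.32 to 11.52 in pre-B cells and 10.48 to 10.97 in pro-B cells. Against pro-B cells, markers were also lower for 5 of 5 NK-cell, 4 of 9 dendritic-cell, 3 of 7 T-cell and 2 of 6 erythroid genes. There 1 T-cell gene was higher, and of 12 macrophage genes 1 was higher and 1 lower. Against pre-B cells, 5 of 6 erythroid, 3 of 12 macrophage, 2 of 5 NK-cell, 2 of 7 T-cell and 1 of 9 dendritic-cell genes were lower. The part of these transcripts was not tested.

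Against Bcl6 Trans tumours, Lig4/P53 KO tumours had less of 3 genes, H2-Aa (-2.16 ± 0.42, adjusted p = 0.000278 by limma), H2-Eb1 (-1.49 ± 0.38, adjusted p = 0.00385) and Ciita (-1.49 ± 0.50, adjusted p = 0.0266), with 26.4% of all genes called and 10.9% lower. H2-Ab1 (-1.06, adjusted p = 0.0867) and H2-Oa (-1.18, adjusted p = 0.0631) did not pass, and Cd74 (-0.46), H2-DMa (0.23) and H2-DMb2 (0.61) differed by less. The second probe sets of H2-Aa (-0.20 ± 0.47, adjusted p = 0.78) and Ciita (-0.64 ± 0.35, adjusted p = 0.191) were not called, nor were the others of H2-Ab1 (0.65 ± 0.53 and 0.46 ± 0.47), with 24.8% of all probe sets called. Of the other class II genes Ifi30 was higher (1.24 ± 0.40) and Cd83 (-3.11 ± 0.57), Ctss (-1.77 ± 0.38) and H2-Ea (-1.27 ± 0.33, both means below the overall median) were lower. Promoter-complex genes ran the other way, higher in Lig4/P53 KO tumours for 4 of 7 (Rfx5, Nfyc, Nfyb and Nfya). The call of Ciita was lost without Lig4/P53 KO array 3, Bcl6 Trans array 3 or Bcl6 Trans array 4 (adjusted p 0.0591 to 0.0956) and with the 3' minus 5' covariate (-0.68, adjusted p = 0.345), and H2-Oa was called without Lig4/P53 KO array 3 or array 4 (adjusted p 0.0386 and 0.032). Markers of macrophages were lower in Lig4/P53 KO tumours for 5 of 12 genes, Csf1r by 3.53 ± 0.55 and C1qb by 3.95 ± 0.58, and Cd79a was 3.26 ± 0.36 higher; their part was not tested.

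**Figure D5:**
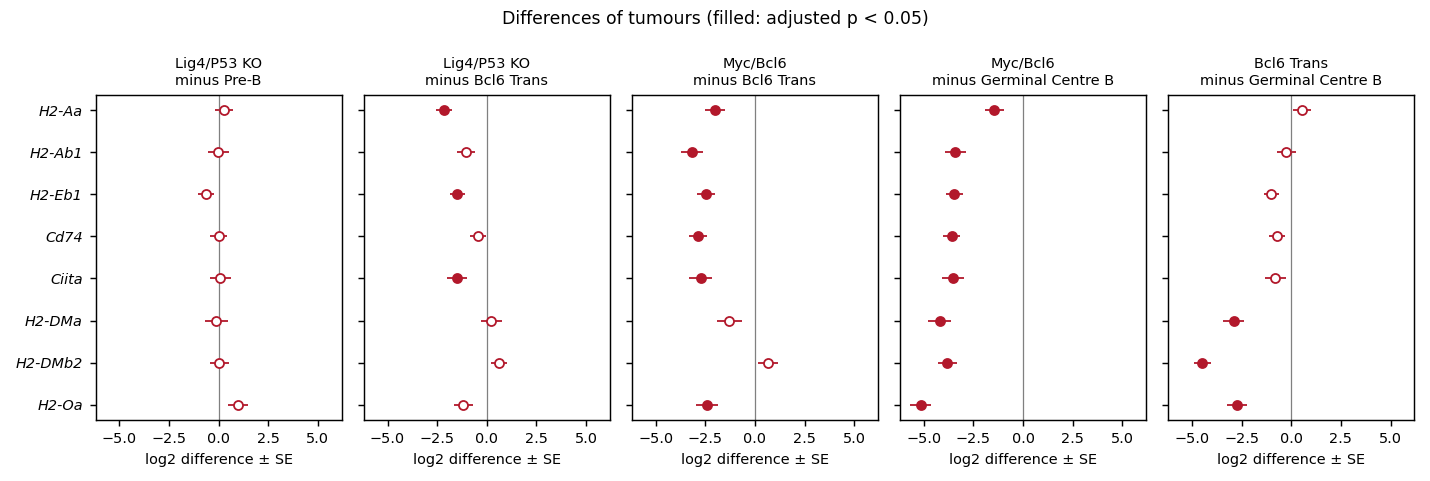
Log2 difference ± SE of each of the 8 genes for 5 comparisons of tumours with normal stages or with other tumours, the first-named group minus the second; filled points have a limma adjusted p under 0.05. Lig4/P53 KO minus pre-B has no filled point, Bcl6 Trans minus GC has 3 (the peptide editors), and Myc/Bcl6 minus GC has 8.

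Genes outside the class II lists with the most similar pattern were sought over the 9 group means, among 5585 genes whose means spanned at least 2 log2 units. The 5 with the highest Pearson r with the mean of the 8 centred genes were Fam102a (0.981), Sh3bp2 (0.971), Mif4gd (0.960), Cpne3 (0.954) and Trim26 (0.952). Sh3bp2 is an adaptor protein of signalling in immune cells, and Trim26 encodes a ubiquitin ligase of the tripartite motif family. Fam102a, the nearest, averaged 6.25 ± 0.30 in Lig4/P53 KO tumours, 5.70 ± 0.65 in tumours labelled Myc/Bcl6 and 6.97 ± 0.69 in Bcl6 Trans tumours (SD, n = 6, 3 and 4). Over the stages it averaged 5.89 in pro-B cells, 6.05 in pre-B cells, 8.22 in transitional B cells, 8.34 in GC B cells, 7.94 in plasmablasts and 6.23 in plasma cells, so that the same 3 splenic stages were high. These values are a description of 9 points drawn from the same arrays.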

How the data were processed

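Per the labels' protocols, total RNA extracted with Tripure was amplified by the Ovation V2 system of NuGen and labelled with biotin. The deposited values were log2 intensities made by RMA, per the submitters' processing notes, which give no version (RMA removes background, equalises the arrays' distributions and summarises probes); which arrays were normalized together is not given in the sources used here. Of 22690 probe sets, 64 were controls, 691 had several gene symbols and 1555 none, and these were left out. The other 20380 gave 12393 genes, 4956 of them by the brightest of several probe sets. Symbols came from the platform annotation, and 20351 probe sets matched RefSeq with 0 symbols changed.

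Each comparison was a limma contrast (lmFit, eBayes), on the 22 normal arrays between stages and on all 35 with tumours, called at a Benjamini-Hochberg adjusted p under 0.05 over all genes. The members and the 12 other gene lists were chosen with earlier results of these data known. All 8 members are named in every comparison, up to 4 genes of smallest p in other lists, any gene of the other class II list, and the 5 genes of highest r; Sdc1, Ms4a1, Jchain, Prdm1 and Cd79a were named after their values were seen. Scripts were tested on simulated data. The alternatives were 12 kinds: array weights, a trended robust prior, equal medians, quantile normalization done again, a filter on dim genes, the mean of a gene's probe sets, the compared groups alone, the replicate block, covariates for strain and for the 3' minus 5' difference, leaving out narrow arrays and each array in turn. The Trp53 and Lig4 genes were not analysed here. Software: limma 3.58.1 and statmod 1.5.0 in R 4.3.3; matplotlib 3.10.9, scipy 1.17.1, pandas 2.3.3 and numpy 2.4.6 in Python 3.11.15.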

Additional observations from a re-analysis of the deposited data

Results flagged for a closer look

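In 40 sets of values, those of the 8 genes in the groups of 4 to 10 arrays, the highest or lowest array was compared with the rest by Dixon's criterion, which chance meets in about 1 of 20. A single array stood out: H2-DMa read 10.42 in plasmablast array 3, against 9.70, 9.59 and 9.69 in the other plasmablast arrays. Leaving that array out changed the count of called genes between plasma cells and plasmablasts to 4, against 7 with it.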

How the results depend on the processing

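The numbers below are counts of called genes among the 8, with the reported count after each. A fit on the compared groups alone gave 3 for transitional against pre-B cells (8), 1 for plasmablasts against GC B cells (0), 5 for Bcl6 Trans tumours against GC B cells (3), 2 for Lig4/P53 KO tumours against pro-B cells (0) and 0 for tumours labelled Myc/Bcl6 against Bcl6 Trans tumours (6), where it called no gene at all. Array weights gave 1 for plasmablasts against GC B cells (0), 3 for Lig4/P53 KO tumours against pro-B cells (0) and 6 against Bcl6 Trans tumours (3). Without the 3 arrays of narrow spread, plasmablasts against GC B cells gave 1 (0) and Lig4/P53 KO against Bcl6 Trans tumours 5 (3), and this count was also 5 with renewed quantile normalization. The 3' minus 5' covariate gave 2 for Lig4/P53 KO tumours against pro-B cells (0). It also ended single calls: H2-DMa and H2-Oa between plasma cells and plasmablasts, H2-DMa between Bcl6 Trans tumours and GC B cells, H2-Aa between tumours labelled Myc/Bcl6 and GC B cells, and Ciita between Lig4/P53 KO and Bcl6 Trans tumours. Array weights ended that of Ciita between transitional and pre-B cells (2.10, adjusted p = 0.077). The mean of all probe sets gave 6 for Bcl6 Trans tumours against GC B cells (3), where H2-Aa turned to -1.27 (adjusted p = 0.0243). Replicate numbers did not pair samples: the median correlation of deviations was 0.00079 over 119 same-numbered pairs and 0.00065 over 421 others. With the replicate number as a block, plasma cells against plasmablasts gave 4 (7). The cause of these changes was not tested.

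Leaving out 1 array at a time gave 0 to 0 called genes for pre-B against pro-B cells, 7 to 8 for transitional against pre-B cells, 0 to 0 for GC against transitional B cells and for plasmablasts against GC B cells, 4 to 7 for plasma cells against plasmablasts and 5 to 7 against GC B cells. For tumours it gave 3 to 4 (Bcl6 Trans against GC B cells), 7 to 8 (Myc/Bcl6 against GC B cells), 0 to 2 and 0 to 1 (Lig4/P53 KO against pro-B and pre-B cells), 4 to 6 (Myc/Bcl6 against Bcl6 Trans) and 2 to 4 (Lig4/P53 KO against Bcl6 Trans). Renewed quantile normalization moved the median of all genes to -0.05 (reported -0.27) for GC against transitional B cells, and the share of calls that were higher to 56.8% (reported 39.2%). Of the single-gene values, 1599 kept direction and side of the threshold, and with the direction kept 57 lost the threshold and 47 gained it. Another 72 changed direction without a call in either fit, and 1 changed direction with a call in at least 1 of its fits.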
